A study of Mus musculus with 26 samples.

Results

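The genes Cdc42ep3, Ebf2, Zfp521, Neto2, Tril, Bend3, Apba2 and Runx2, were followed across mouse oocytes with altered Tet3 or Dnmt3a. They are 8 of the 24450 features used here, chosen by measured values: their levels showed large falls in the libraries without the low-complexity domain (LCD) of Tet3 or without both that domain and Dnmt3a. Levels in those libraries therefore describe how the genes were picked and carry no test. All 8 passed the filter on low counts that kept 11794 genes, a filter that a gene can pass through the group where it is high. The choice named no threshold, so which genes lie just outside it cannot be said.

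RNA with poly(A) tails was sequenced from pools of 10 germinal vesicle (GV) oocytes, which are full-sized and have not resumed meiosis. The control oocytes (WT) had the genotype Tet3 LCDf/f without Cre, so they carried the floxed domain too, and 6 of their libraries were used. LCD KO oocytes were Tet3 LCDf/f; Zp3-Cre (7 libraries), and HD mutant oocytes were Tet3 LCD HD Mutf/f; Zp3-Cre (5 libraries), and the labels do not spell out HD. Dnmt3a KO oocytes were Dnmt3af/f; Zp3-Cre (2 libraries), and DKO oocytes carried both the floxed Tet3 domain and floxed Dnmt3a with Zp3-Cre (2 libraries). A further 2 libraries labelled Tet3 KO were from Tet3f/f; Zp3-Cre oocytes. The 2 columns labelled TKO (Tet1, 2, 3f/f; Zp3-Cre) held the same value as the Tet3 KO columns in every feature and were counted once with them, which left 24 distinct libraries. Zp3-Cre acts in growing oocytes, so every group but WT carried Cre and no group carried Cre alone: Cre and the deletions cannot be told apart in comparisons with WT. The age of the mice is not stated in the labels.

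Total counts were 1838824 to 7833087 per library. The labels give 3 batches. WT and LCD KO libraries are in all of them, HD mutant 1 to 3 are in batch 2 with a single WT library (WT 4), the Dnmt3a KO, DKO and Tet3 KO libraries are in batch 3, and HD mutant 4 and 5 have no stated batch. Tet3 stood at 157 to 426 CPM (counts scaled to the size of the library, with TMM factors) in WT, at 43.8 to 199 in LCD KO, at 51.9 to 198 in HD mutant and at 57.0 and 65.6 in DKO. The libraries labelled Tet3 KO held 262 and 356 CPM of Tet3, within the WT range, and 142 and 104 CPM of Dnmt3a, below the lowest WT value of 236. Dnmt3a KO libraries held 234 and 374 CPM of Tet3 and 132 and 107 of Dnmt3a, and DKO libraries 99.5 and 97.1 of Dnmt3a. Against WT, Dnmt3a had a log2 fold change of -1.48 in the libraries labelled Tet3 KO and -1.53 in Dnmt3a KO, and Tet3 0.60 and 0.58. On both genes the libraries labelled Tet3 KO thus stood near Dnmt3a KO. They are called by that label throughout, and a count per gene cannot show which exons are missing. All 10 oocyte markers were present in every group, but edgeR called 4 of them lower and 0 higher in LCD KO against WT (7 at an unadjusted p below 0.05, 6 called by DESeq2, median log2 fold change -0.38) and 2 lower in HD mutant against WT (4 at an unadjusted p below 0.05, 2 called by DESeq2, median -0.28). The summed level of 15 granulosa and cumulus markers was 80.7 to 132 CPM in WT and 91.5 to 361 in LCD KO, with Ptx3 at 0 in both. Of 7 tested, edgeR called 1 higher and 0 lower in LCD KO against WT. DESeq2 called 2, and 2 had an unadjusted edgeR p below 0.05. The gene called by edgeR was Hsd3b1 (0.99 ± 0.33, adjusted p = 0.0355). Inha was at 2.11 ± 0.71 (edgeR adjusted p = 0.0513), with a mean of 60.3 CPM in LCD KO against 17.8 in WT. Ptgs2 went the other way (-0.82 ± 0.48, not called). The sum of 7 theca and stroma markers was 1.03 to 2.82 CPM in WT and 2.87 to 6.30 in LCD KO, without overlap. Most of the sum in LCD KO was 1 gene, Dcn, with a mean of 3.49 CPM against 0.739 in WT. Col1a2 (0.259 in WT, 0.109 in LCD KO) and Col3a1 (0.324, 0.106) went the other way, as did Cyp17a1 and Acta2, at 0 in LCD KO. Lum and Pdgfra were at 0 in WT and at most 0.277 on average in LCD KO. In HD mutant the theca and stroma sum was 2.30 to 6.29 CPM. Dcn differed from WT there by 1.79 ± 0.60 (edgeR adjusted p = 0.0641), beside 2.08 ± 0.44 in LCD KO (adjusted p = 0.00161). Blood and immune markers summed to at most 3.02 CPM in any library, with Hbb-b1 and Hba-a1 at 0. The part of these markers in the levels below was not tested.

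Tet3 is a dioxygenase that oxidizes methylated cytosine, and Dnmt3a is the enzyme that lays down most new DNA methylation during oocyte growth. The 8 genes share no single pathway. Ebf2, Runx2 and the zinc finger protein Zfp521 are transcriptional regulators best known from mesenchymal, fat, bone and blood cells, and Bend3 is a BEN-domain repressor that binds unmethylated CpG-containing DNA. Cdc42ep3 is an effector of the small GTPase Cdc42 that organizes septins and actin. Tril is a co-receptor of Toll-like receptors, Neto2 an auxiliary subunit of kainate-type glutamate receptors, and Apba2 (X11-like, Mint2) an adaptor that binds the amyloid precursor protein.

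The start sites of the genes differ in CpG content, which matters as background because both enzymes act on CpG. RefSeq promoter windows on GRCm38.p6 matched 6 of the 8 genes by symbol, with 9 windows. Counted over the 250 bases before the start site, the windows of Bend3 held 38 and 2 CpG, those of Apba2 38 and 19, and those of Neto2 30 and 0. Tril had 20 CpG, Cdc42ep3 18 and Runx2 0, against a median of 6 over all 32851 windows. Tril and Cdc42ep3, which each have 1 window and lie among the CpG-rich ones, are printed on the minus strand, 5′ to 3′, with CpG in capitals: chr6:53820826-53821075 for Tril and chr17:79355092-79355341 for Cdc42ep3. The Runx2 stretch, chr17:44814692-44814717 on the minus strand, shows in capitals the match to the RUNX motif, which ends 75 bases before the start, with 10 bases on each side.
Tril: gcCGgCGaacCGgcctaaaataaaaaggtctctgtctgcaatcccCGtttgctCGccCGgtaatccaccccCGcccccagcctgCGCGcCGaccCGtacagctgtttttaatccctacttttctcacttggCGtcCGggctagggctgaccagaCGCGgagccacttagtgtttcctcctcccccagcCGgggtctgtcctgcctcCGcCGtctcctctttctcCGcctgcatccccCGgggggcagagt
Cdc42ep3: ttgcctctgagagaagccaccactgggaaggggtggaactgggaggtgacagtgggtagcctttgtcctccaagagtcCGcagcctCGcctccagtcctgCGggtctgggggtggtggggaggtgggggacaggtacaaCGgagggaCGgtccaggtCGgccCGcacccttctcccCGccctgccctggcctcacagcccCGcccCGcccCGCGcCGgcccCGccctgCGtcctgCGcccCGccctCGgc
Runx2: gaggtcacaaACCACAtgattctgtc
Both strands were searched for TGTGGT, the core bound by RUNX factors, and for the EBF motif, the palindrome of TCCC and GGGA parted by NN. TGTGGT or its reverse complement was in 2 of the 9 windows (Runx2 and the CpG-poor window of Bend3) and in 14.05% of all windows. The EBF motif was in 0 of the 9 and in 0.779% of all windows, so no window of these genes held both. Ebf2 and Zfp521 had no entry.

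**Figure D1:**
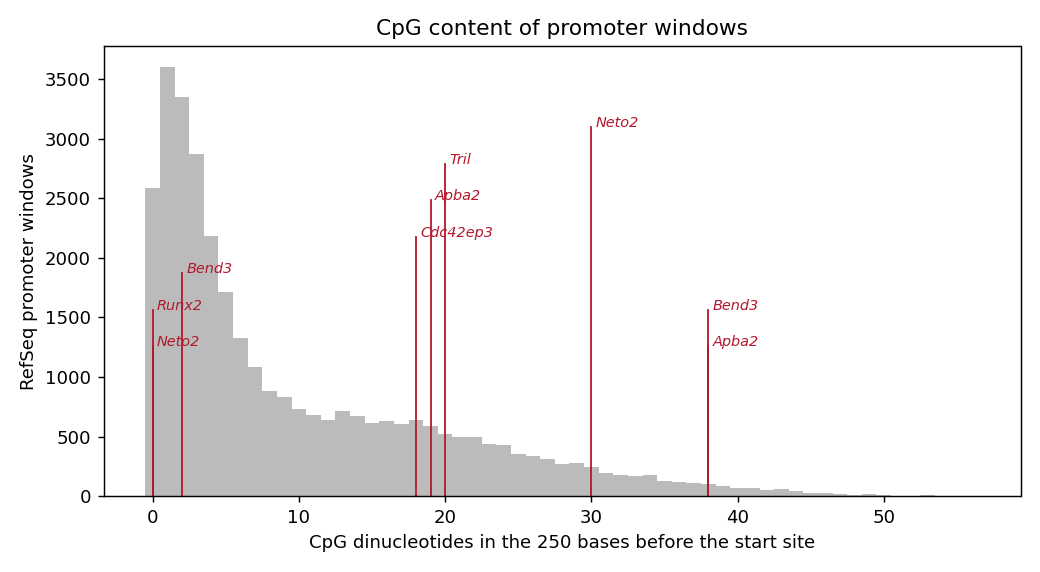
Number of CpG dinucleotides in the 250 bases before the start site (x axis) against the number of RefSeq mouse promoter windows (grey bars, y axis), with red lines for the windows of the 6 matched genes; the heights of the red lines only space the names. Bend3, Apba2 and Neto2 each have 1 window with 30 or more CpG, while Runx2 and the other window of Neto2 have 0.

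All 8 genes were lower in LCD KO than in WT. In DKO, whose levels also chose the genes, 7 of them were below both WT libraries of batch 3, as were 20.6% of all genes tested. Ebf2, Zfp521, Tril, Apba2 and Runx2 were lower in DKO than in every WT library of batch 3, with 0 to 2 counts left over the 2 DKO libraries for 4 of them. Cdc42ep3 and Neto2 were also below WT there, whereas the DKO libraries of Bend3 spanned the WT values of batch 3. In 18.3% of the genes tested a change in LCD KO against WT was called by the edgeR quasi-likelihood test (adjusted p below 0.05), 9.44% lower, and the corresponding shares for DKO against WT were 3.79% and 1.52%. Among the 8 genes, 6 were in the 13 lowest of 11794 fold changes in LCD KO, and that restates the choice of the genes. Runx2 and Apba2 ranked 127 and 217 from the lowest, so genes outside the set fell further than these. Fold changes below are log2 values ± standard error from that fit, with batch as a term, and a level is compared only within a gene.

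Of the transcriptional regulators, Zfp521 is a multi-zinc-finger protein that binds and restrains EBF factors. Its level in WT was 2.20 at the lowest, 4.19 at the median and 8.59 CPM at the highest, and in LCD KO 0.238, 0.724 and 1.47. DKO libraries held 0.251 and 0 CPM, HD mutant libraries 1.10, 1.92, 1.36, 0.481 and 1.72, Dnmt3a KO libraries 0.367 and 1.07, and the libraries labelled Tet3 KO 1.61 and 1.22. Every library of every other group lay below every WT library. The log2 fold change was -2.96 ± 0.38 in LCD KO. The 1 count left in DKO was 20.1-fold lower than in the WT libraries of batch 3, with a 95% counting interval of 3.22 to 835.

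Ebf2 is a helix-loop-helix factor of the early B-cell factor family that drives brown fat and osteoblast lineage programmes. Its WT level ranged from 0.940 to 3.21 CPM with a median of 1.88, and 4 of the 7 LCD KO libraries held none, with a median of 0 and a highest value of 0.952. It stood at 0 and 0.334 CPM in DKO, at 0, 0.296, 0.619, 0 and 0.574 in HD mutant, at 1.47 and 3.64 in Dnmt3a KO and at 1.84 and 1.95 in the libraries labelled Tet3 KO. LCD KO 7, at 0.952, was the only LCD KO library to reach the WT range. Both libraries labelled Tet3 KO lay inside that range, Dnmt3a KO 2 lay above it, and every DKO and HD mutant library lay below it. These values rest on 40 counts over the 6 WT libraries, 6 over LCD KO and 1 over DKO. The fold change in LCD KO was -2.96 ± 0.67. Within batch 3 the 1 DKO count was 19.1-fold lower than WT, with a counting interval of 3.04 to 795.

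Runx2 is the runt-domain factor required for osteoblast formation. It was measured at 1.95 to 10.6 CPM in WT with a median of 4.05, and at 0.724 to 2.89 in LCD KO with a median of 2.14. The other groups held 0.251 and 0.334 CPM (DKO), 4.09, 1.92, 4.09, 1.92 and 0.574 (HD mutant), 1.84 and 3.64 (Dnmt3a KO), and 3.23 and 2.44 (labelled Tet3 KO). Both DKO libraries were below every library of every other group, but LCD KO and WT overlapped over all libraries and within batch 1. The fold change in LCD KO was -1.48 ± 0.34. In DKO, 2 counts remained, 20.1-fold lower than WT of batch 3 (counting interval 5.22 to 172) and 10.4-fold lower than Dnmt3a KO (2.55 to 91.1). Supt3, whose gene overlaps Runx2, averaged 31.7 CPM in WT and 32.2 in LCD KO, a fold change of -0.02 ± 0.13. No source used here states the strand setting of the counting, so reads of overlapping or antisense genes cannot be assigned with certainty.

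Bend3 recruits chromatin repressors to CpG-rich DNA and acts with the NuRD complex. In WT its lowest, median and highest levels were 0.627, 1.22 and 7.52 CPM, and in LCD KO 0, 0.238 and 2.14, with 3 LCD KO libraries at 0. DKO libraries held 3.27 and 0.334 CPM, HD mutant libraries 1.10, 2.37, 3.10, 0.481 and 0.574, Dnmt3a KO libraries 2.20 and 3.00, and the libraries labelled Tet3 KO 2.08 and 2.93. Pooled over batches, LCD KO reached the WT range through LCD KO 5 alone, and the highest library of both groups was of batch 2. Within each batch LCD KO was below WT, and the fold change was -2.69 ± 0.58. In batch 1 that order rested on 1 count in LCD KO against 8 in WT, 7.32-fold lower, with a counting interval of 0.982 to 325 that includes no change. In DKO the fold change was 0.15 ± 0.74, and its sign hung on 1 library, at -2.28 without DKO 1 and 0.91 without DKO 2.

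Cdc42ep3 is a Borg protein, one of the Cdc42 effectors that bind septins. WT libraries held 22.5 to 59.3 CPM with a median of 43.4, and LCD KO libraries 1.84 to 9.45 with a median of 4.05. DKO libraries were at 3.77 and 10.01 CPM, HD mutant libraries at 3.93, 6.36, 10.03, 2.40 and 2.30, Dnmt3a KO libraries at 20.6 and 12.6, and the libraries labelled Tet3 KO at 5.07 and 3.17. Each of these groups was below every WT library, and Dnmt3a KO was the one closest to WT. The fold changes were -3.14 ± 0.30 in LCD KO and -1.94 ± 0.50 in DKO, the latter -1.35 without DKO 1 and -2.75 without DKO 2. In the ratio of summed counts, LCD KO was 18.5-fold lower than WT in batch 1 (counting interval 12.2 to 29.4), 4.09-fold lower in batch 2 (3.33 to 5.04) and 7.03-fold lower in batch 3 (4.60 to 11.2).

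Apba2 scaffolds membrane traffic and amyloid precursor protein in neurons. It ranged from 26.0 to 57.7 CPM in WT with a median of 53.1, and from 13 to 27.4 in LCD KO with a median of 19.6. Levels were 8.04 and 6.0 CPM in DKO, 19.2, 17.6, 22.3, 8.65 and 10.9 in HD mutant, 24.2 and 31.5 in Dnmt3a KO, and 25.1 and 27.6 in the libraries labelled Tet3 KO. DKO was below every other library, and LCD KO overlapped WT only through LCD KO 2 of batch 1 and WT 5 of batch 3. The fold change was -1.24 ± 0.16 in LCD KO and -2.47 ± 0.32 in DKO. Against Dnmt3a KO, DKO differed by -1.98 ± 0.33.

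Neto2 changes the gating of kainate receptors in neurons. Its WT libraries held 1.17 to 3.94 CPM with a median of 2.14, while 4 LCD KO libraries held none and the highest stood at 0.889. It was at 1.26 and 1.67 CPM in DKO, at 1.10, 1.77, 1.61, 1.92 and 0 in HD mutant, at 1.47 and 3.64 in Dnmt3a KO and at 1.84 and 4.64 in the libraries labelled Tet3 KO. LCD KO did not overlap WT. DKO and Dnmt3a KO lay inside the pooled WT range, although both DKO libraries were below both WT libraries of batch 3, HD mutant reached into the range from below, and 1 library labelled Tet3 KO lay above it. The fold changes were -2.85 ± 0.51 in LCD KO and -0.95 ± 0.71 in DKO. In batch 1, LCD KO had no counts against 14 in WT, which makes it at least 4.27-fold lower when 3 counts are allowed over the group.

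Tril augments signalling by Toll-like receptors at the membrane and in endosomes. WT libraries ranged from 1.25 to 13.4 CPM with a median of 2.66, and LCD KO libraries from 0 to 3.38 with a median of 0.362. DKO had 0 counts in both libraries. HD mutant libraries held 0.944, 1.04, 3.59, 0 and 0 CPM, Dnmt3a KO libraries 0 and 1.5, and the libraries labelled Tet3 KO 1.15 and 1.46. WT 4, LCD KO 5 and HD mutant 3, the highest of their groups, are all of batch 2, and LCD KO reached the pooled WT range through LCD KO 5 alone. The fold change in LCD KO was -2.76 ± 0.54. With 3 counts allowed over the group, DKO was at least 3.02-fold lower than WT of batch 3.

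**Figure D2:**
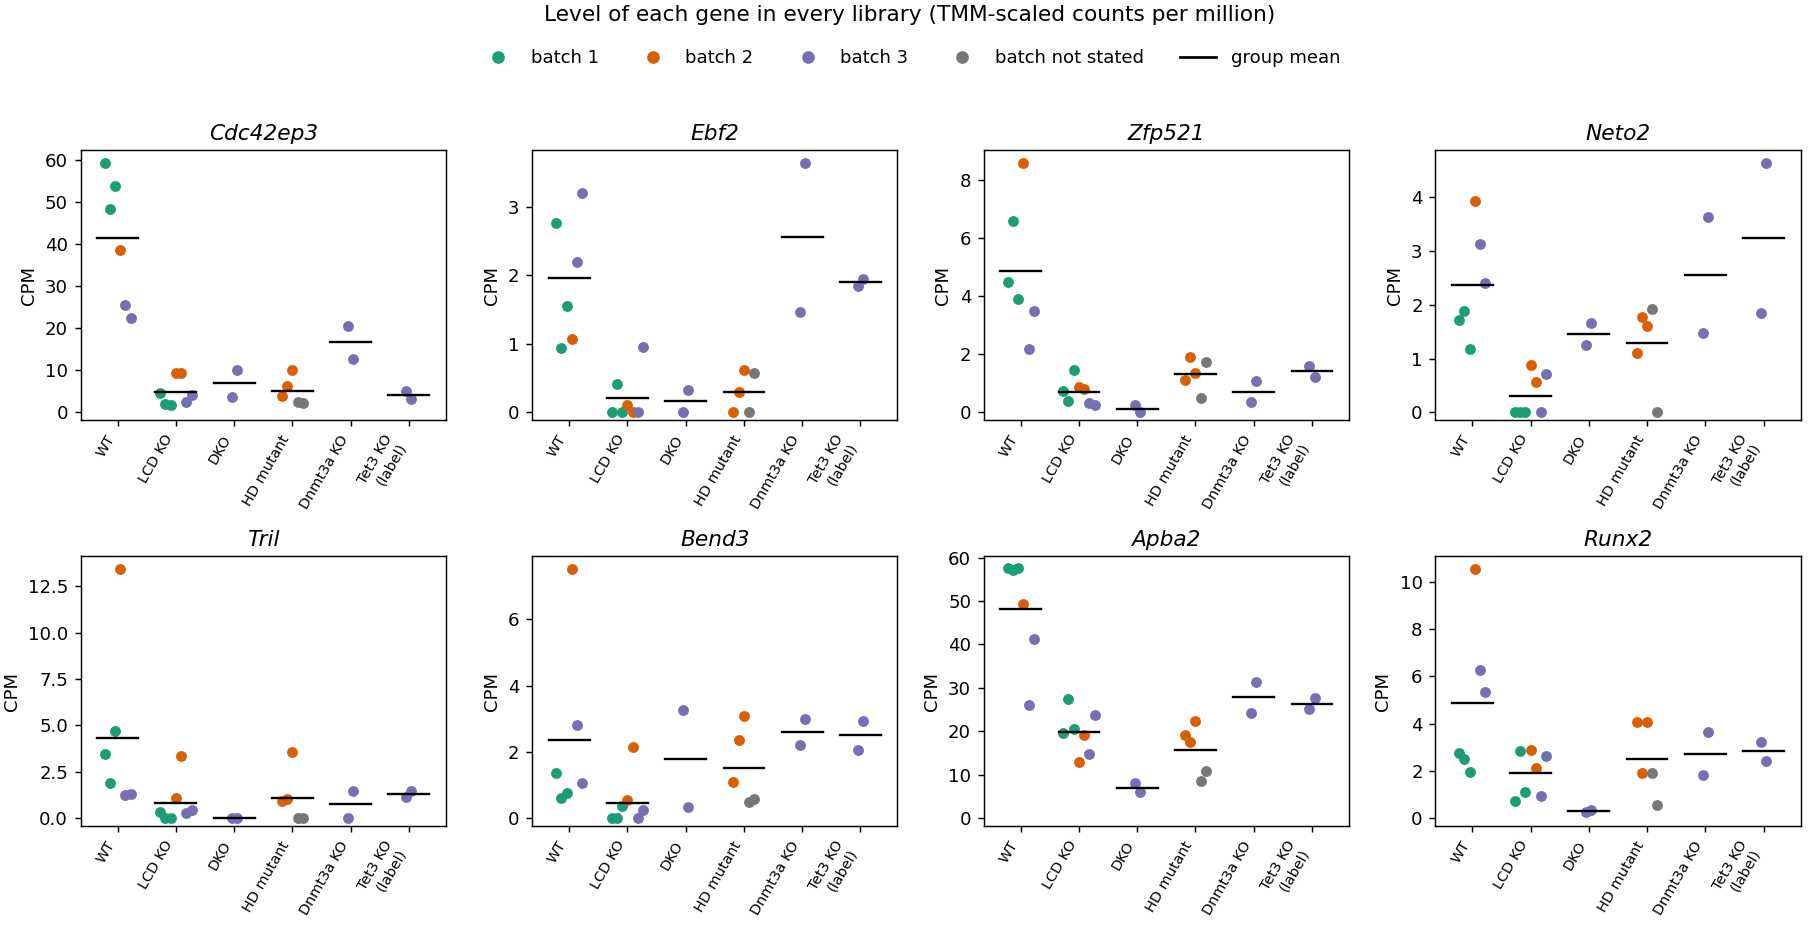
Level of each of the 8 genes in CPM (y axis, linear, own scale per gene) in each of the 24 distinct libraries, by group (x axis) and coloured by batch; black lines are group means. LCD KO libraries sit below the WT libraries of the same batch for every gene, apart from Runx2 in batch 1; DKO libraries are lowest for Apba2 and Runx2 and span the WT values for Bend3.

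Within batches, every LCD KO library was below every WT library for 7 of the 8 genes in batch 1 (Runx2 overlapped), 8 in batch 2 and 8 in batch 3. The same order held for 20.7%, 42.3% and 21.2% of all genes tested, and these libraries chose the genes, so nothing is read from the counts. DKO was below WT for 7 of 8 (20.6% of all genes) and below Dnmt3a KO for 5 of 8 (18.8%). The order of group means in batch 3, where 5 groups have 2 libraries each, differed between genes. WT was highest for Cdc42ep3, Ebf2, Zfp521, Apba2 and Runx2, and neighbours in the order did not overlap between WT and the next group for Cdc42ep3, Zfp521 and Runx2. DKO was lowest for Ebf2, Zfp521, Tril, Apba2 and Runx2, without overlapping LCD KO for Tril, Apba2 and Runx2. LCD KO was lowest for Cdc42ep3, Neto2 and Bend3, and for Neto2 and Bend3 it did not overlap DKO. For Cdc42ep3 the libraries labelled Tet3 KO stood between DKO and LCD KO and overlapped both. Pools of oocytes cannot tell fewer cells with a transcript from less of it per cell.

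HD mutant libraries were not used to choose the genes, but the WT libraries they were compared with were, and high WT values helped to choose them. Fold changes and calls against WT, here and in the groups below, are therefore not independent of the choice and are given as a description. Of the HD mutant libraries, the fit held only HD mutant 1 to 3. All 8 genes had a fold change below 0 in HD mutant against WT, with a median of -1.76 against -0.01 over all genes tested. The edgeR fit placed 4 of the 8 past its threshold: Cdc42ep3 (-3.26 ± 0.45), Zfp521 (-2.35 ± 0.50), Tril (-2.92 ± 0.65) and Apba2 (-1.09 ± 0.25). It called 3.75% of all genes lower, and nothing is read from the members' count beside that share. Not called were Bend3 (-1.89 ± 0.64), Runx2 (-1.30 ± 0.45), Neto2 (-1.63 ± 0.62) and Ebf2 (-1.41 ± 1.06). A fit of batch 2 alone called 0 of 8, with -2.46 for Cdc42ep3, -2.51 for Zfp521, -2.77 for Tril and -1.29 for Apba2. In batch 2 each of HD mutant 1 to 3 was below WT 4 for all 8 genes, an order that 32.9% of all genes showed with 3 libraries against 1. These calls depended on WT 4, the sole WT library of that batch: without it 1 of 8 was called (Cdc42ep3, -4.08), and Zfp521 (-1.94), Tril (-3.25) and Apba2 (-0.84) were not.

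HD mutant and LCD KO carry changes of the same Tet3 domain by label, and LCD KO chose the genes, so their difference is described only. HD mutant minus LCD KO was -0.12 for Cdc42ep3 (95% interval -0.94 to 0.69), 0.15 for Apba2 (-0.34 to 0.65), 0.18 for Runx2 (-0.70 to 1.06) and -0.16 for Tril (-1.54 to 1.22). It was 0.61 for Zfp521 (-0.40 to 1.62), 0.80 for Bend3 (-0.40 to 2.01), 1.22 for Neto2 (0.02 to 2.42) and 1.56 for Ebf2 (-0.62 to 3.73). In batch 2 no gene had every HD mutant library below every LCD KO library (15.9% of all genes did). For Zfp521 and Neto2 every HD mutant library of batch 2 was above both LCD KO libraries, at 1.10 CPM or more against 0.889 or less. The share of all genes with that opposite order was not counted, so nothing is read from it. The intervals of all but Cdc42ep3 and Apba2 held differences of over 1 on the log2 scale.

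In Dnmt3a KO against WT, 7 of the 8 genes had a fold change below 0, with a median of -0.57 against -0.01 over all genes tested. edgeR called 0 of 8 and DESeq2 0, and with 0.322% of all genes called lower a count of 0 among 8 genes shows nothing particular to them. Zfp521 had the lowest fold change (-1.77 ± 0.69), the only one with an unadjusted p below 0.05 (0.0162, adjusted p = 0.268). Its 6 counts in Dnmt3a KO were 3.56-fold lower than WT of batch 3 (counting interval 1.38 to 10.8). For Runx2 and Cdc42ep3 the values were -0.95 ± 0.53 and -0.65 ± 0.45, and for Ebf2, Neto2 and Bend3 they were -0.19 ± 0.69, -0.07 ± 0.65 and 0.61 ± 0.75. Apba2 was at -0.49 ± 0.27, and Tril at -0.82 ± 0.99, the latter -5.86 without Dnmt3a KO 2, which leaves 0 counts of Tril in the group. Every Dnmt3a KO library was below both WT libraries of batch 3 for 3 genes, Cdc42ep3, Zfp521 and Runx2, as for 17.0% of all genes.

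In the libraries labelled Tet3 KO, Cdc42ep3 fell by 2.62 ± 0.52 on the log2 scale against WT (edgeR adjusted p = 0.00597) and was the 1 gene of 8 called, with 0.822% of all genes called lower. DESeq2 called 1 as well. The call was lost without either of the 2 libraries, with adjusted p = 0.0687 without the first (-3.0) and 0.186 without the second (-2.33). A fit of batch 3 alone also called 1 of 8, the same gene. The other 7 genes lay between -0.97 ± 0.53 (Runx2) and 0.52 ± 0.74 (Bend3), and Apba2 (-0.58 ± 0.27) had an unadjusted p of 0.0418. In batch 3 both libraries were below both WT libraries for Cdc42ep3, Ebf2, Zfp521 and Runx2, 4 of 8 against 19.2% of all genes. Set directly against Dnmt3a KO, Cdc42ep3 differed by -1.97 ± 0.54 (unadjusted p = 0.00124, adjusted p = 0.167), and 0 of 8 genes were called by edgeR against 0.212% of all genes lower; 1 of 8 had an unadjusted p below 0.05, and DESeq2 called it (adjusted p = 0.0471).

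HD mutant was also compared with the mean of Dnmt3a KO and the libraries labelled Tet3 KO. None of these libraries had chosen the genes and all carry Zp3-Cre, but the batch term of the fit came from libraries that had. All 8 differences were below 0, with a median of -1.31 against 0.01 over all genes. edgeR called 0 of 8, against 1.82% of all genes called lower, and DESeq2 also called 0. The unadjusted p from edgeR was below 0.05 for 4 genes: Cdc42ep3 (-1.62 ± 0.56, adjusted p = 0.104), Bend3 (-2.46 ± 0.86, adjusted p = 0.104), Tril (-2.36 ± 0.98, adjusted p = 0.187) and Neto2 (-1.69 ± 0.77, adjusted p = 0.235). The remaining differences were -1.0 ± 0.72 for Zfp521, -0.97 ± 1.24 for Ebf2, -0.56 ± 0.31 for Apba2 and -0.34 ± 0.59 for Runx2. HD mutant 1 to 3, the HD mutant libraries in the fit, are of batch 2 and the others of batch 3. This contrast thus rests on the batch term that WT and LCD KO supply. It is therefore not independent of the choice of the genes and is given as a description. Without a batch term over the 24 distinct libraries, Zfp521 and Tril turned to 0.36 each, while the other genes stayed below 0. From the HD mutant, Dnmt3a KO and labelled Tet3 KO libraries alone, with no batch term, Cdc42ep3 differed by -0.66 (edgeR adjusted p = 0.434). In the fit with batch, Cdc42ep3 was called without WT 4 (-2.29, adjusted p = 0.0163), without HD mutant 3 (-2.03, adjusted p = 0.0451) and with the libraries labelled Tet3 KO left out (-2.61, adjusted p = 0.0155), and Tril turned to 0.16 without Dnmt3a KO 2 and Runx2 to 0.10 without WT 4.

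**Figure D3:**
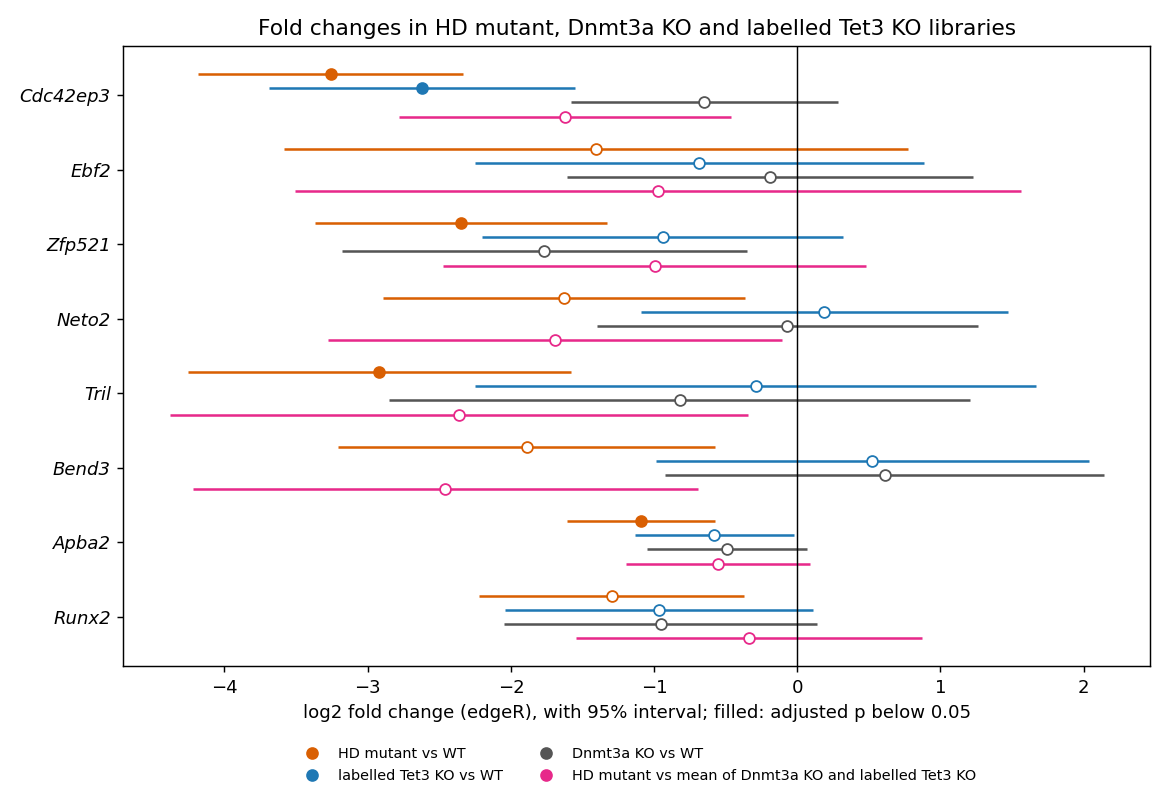
Log2 fold change (x axis) of each gene (y axis) with its 95% interval in 4 comparisons from the edgeR fit; filled points have an adjusted p below 0.05, and WT values helped to choose the genes. Filled points are the 4 genes called in HD mutant against WT and Cdc42ep3 in the libraries labelled Tet3 KO. All 8 genes lie below 0 in both HD mutant comparisons, which use WT or a batch term that WT and LCD KO supply.

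Levels of the 8 genes were correlated across libraries. After each batch mean was subtracted from log2(CPM + 1), all 28 pairs correlated positively over the 22 libraries with a stated batch, with a lowest Pearson r of 0.42, a median of 0.71 and a highest of 0.86. The libraries share their groups, and the genes were chosen for low values in some of those groups, so this is a description. The 2 genes most like each of the 8, out of 11243 with a mean of at least 1 CPM, were taken by the same r. They were Tmem70 (0.902) and Zranb1 (0.891) for Cdc42ep3, Drosha (0.916) and Lrrc8d (0.893) for Ebf2, Gatad2a (0.871) and Ttc7 (0.864) for Zfp521, and Fndc3b (0.919) and Crlf3 (0.883) for Neto2. For Tril they were Hsp90b1 (0.902) and Tmem158 (0.899), for Bend3 Ccdc3 (0.847) and Ide (0.842), for Apba2 Tmem30b (0.906) and Cdh4 (0.900), and for Runx2 S1pr3 (0.796) and Anp32e (0.793). Of these, 2 were looked at further after their values were seen: Cdh4, a cadherin, averaged 13.5 CPM in WT, 3.80 in LCD KO and 1.63 in DKO, and Lrrc8d, a subunit of volume-regulated anion channels, 40.7, 13.9 and 6.26.

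Other genes of the same pathways were taken from 7 lists. These held 50 tested genes beside the 8. In LCD KO against WT, edgeR called 4 lower and 2 higher (DESeq2 called 7 in all), where 9.44% and 8.91% of all genes were called lower and higher. In DKO against WT it called 0 of the 50, with 7 at an unadjusted p below 0.05 and 0 called by DESeq2, where 3.79% of all genes were called, so that few calls among 50 genes would be usual. In HD mutant against WT it called 1 higher, Cask (1.05 ± 0.30, adjusted p = 0.0294), and 1 lower, Gatad2a (-0.73 ± 0.18, adjusted p = 0.0124), against 4.09% and 3.75% of all genes.

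Zfp423, the paralog of Zfp521 and likewise a partner of EBF factors, was the 1 tested gene of the EBF list besides the 8. It stood at 5.17 to 25.6 CPM in WT with a median of 9.15, and at 2.87 to 9.81 in LCD KO with a median of 4.41. The pooled ranges overlapped, and batch 2 was again the highest in both groups. Zfp423 fell in LCD KO by 1.13 ± 0.24 on the log2 scale (edgeR adjusted p = 0.00180); it was at 6.03 and 3.67 CPM in DKO (-0.85 ± 0.41, adjusted p = 0.278). Ebf1, Ebf3 and Ebf4 did not pass the filter. Of the RUNX list, 2 of 13 genes passed the filter and 0 were called in LCD KO, with 0 at an unadjusted p below 0.05 and 0 by DESeq2: Alpl, the alkaline phosphatase of bone, at -0.07 ± 0.29, and Cbfb, the partner subunit of RUNX proteins, at -0.61 ± 0.54. Bglap, Ibsp, Sp7 and the other bone genes of the list did not pass.

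Among 12 tested genes around CDC42, edgeR called 1 lower in LCD KO, the kinase Pak1 (-0.63 ± 0.15, adjusted p = 0.00504), and 1 higher, the Borg paralog Cdc42ep2 (0.50 ± 0.17, adjusted p = 0.0379). The median fold change of this list was 0.00, beside -0.02 over all genes tested. Of 20 tested genes of BEN, NuRD and PRC2 proteins, 2 fell, the NuRD subunit Gatad2a (-0.58 ± 0.11, adjusted p = 0.000812) and the PRC2 subunit Suz12 (-0.61 ± 0.14, adjusted p = 0.00297), and 1 rose, the deacetylase Hdac1 (0.51 ± 0.18, adjusted p = 0.0491), with a list median of -0.05. The kainate receptor genes Grik1 and Grik2, which encode the channel subunits that NETO proteins join, had -0.74 ± 0.35 and -0.43 ± 0.36 and were not called (0 of 2 by edgeR and by DESeq2, 1 at an unadjusted p below 0.05). None of 6 Toll-like receptor pathway genes was called by either tool, with 1 at an unadjusted p below 0.05 and a median of -0.19; Rnf170, a ubiquitin ligase of the pathway, was at -0.31 ± 0.15 and Lbp at -0.47 ± 0.26. None of 7 X11 partners was called by either tool, with 2 at an unadjusted p below 0.05 and a median of -0.08; Lin7c was at -0.21 ± 0.13 and Aplp2 at -0.08 ± 0.17.

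Genes beside the 8 on the chromosome were set against the same background. The nearest tested gene on each side, 16 in all, had a median fold change of 0.12 beside -0.02 over all genes. edgeR called 3 of the 16 lower and 1 higher, where 9.44% of all genes were called lower and 8.91% higher: Ss18 beside Zfp521 (-0.76 ± 0.17, adjusted p = 0.00285), Dnaja2 beside Neto2 (-0.48 ± 0.15, adjusted p = 0.0211) and Fam189a1 beside Apba2 (-1.45 ± 0.36, adjusted p = 0.00668) fell, and Cdca2 beside Ebf2 rose (0.55 ± 0.11, adjusted p = 0.00108). Fam189a1 was at 1.6 to 6.58 CPM in WT and 0 to 5.30 in LCD KO, overlapping over batches.

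Qpct, the glutaminyl-peptide cyclotransferase gene beside Cdc42ep3, was higher than in WT in 4 groups, but did not follow how far Cdc42ep3 fell. In batch 3, Cdc42ep3 averaged 16.6 CPM in Dnmt3a KO and 3.28 in LCD KO. Qpct was at 12.8 and 22.3 CPM in the former libraries and at 2.52 and 1.43 in the latter. In WT, Qpct was at 0.690 to 2.20 CPM with a median of 0.871, and in LCD KO at 0.111 to 17.6 with a median of 2.52. DKO libraries held 6.28 and 11.3 CPM, HD mutant libraries 4.09, 5.03, 4.09, 14.4 and 9.76, Dnmt3a KO libraries 12.8 and 22.3, and the libraries labelled Tet3 KO 20.3 and 22. These 4 groups lay above every WT library, while LCD KO spread across the WT range. By edgeR against WT, Qpct rose by 4.51 ± 0.72 on the log2 scale in the labelled Tet3 KO pair (adjusted p = 0.000675), by 4.26 ± 0.73 in Dnmt3a KO (adjusted p = 0.00262) and by 3.23 ± 0.78 in DKO (adjusted p = 0.0198). The fit also called it higher in HD mutant, but the fitted size uses a batch term to which the widely spread LCD KO libraries contribute, so the levels are given instead: in batch 2 HD mutant held 4.09 to 5.03 CPM, WT 4 0.716, and LCD KO 4 and 5 0.111 and 0.113. For LCD KO, 1.52 ± 0.60 did not pass (adjusted p = 0.0798). Rmdn2, on the other side of Cdc42ep3, was called in none of these 5 comparisons, with adjusted p of at least 0.236.

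**Figure D4:**
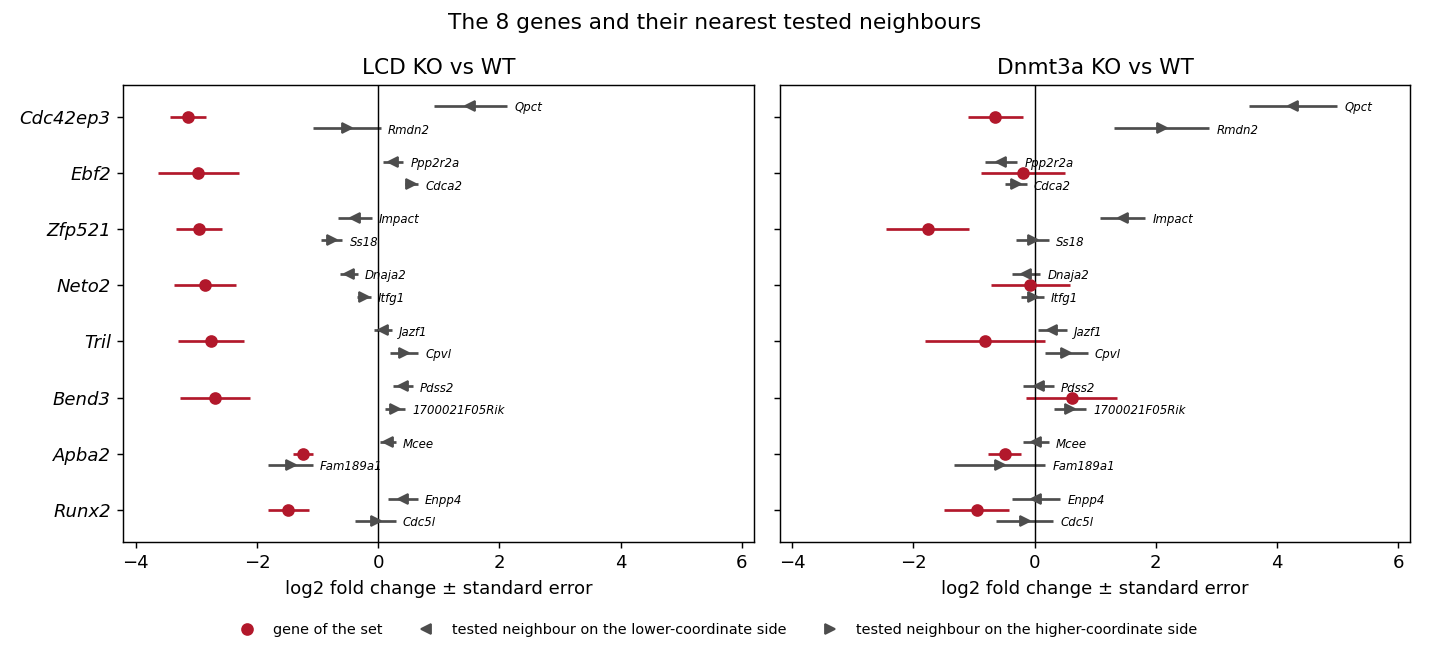
Log2 fold change ± standard error (x axis) of the 8 genes (red) and of the nearest tested gene on each side (grey triangles), for LCD KO against WT (left) and Dnmt3a KO against WT (right). In LCD KO the 8 genes lie at -1.24 or below, and of the neighbours only Fam189a1 at -1.45 lies that low; in Dnmt3a KO the highest point is Qpct at 4.26, next to Cdc42ep3 at -0.65.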

How the data were processed

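The deposited table holds whole-number read counts for each gene symbol, not normalized. Per the submitters' processing notes, the tools were Trim Galore 0.5.0, HISAT2 2.1.0 and featureCounts 1.6.4 with build mm9; annotation, strand and multi-mapping settings are not stated there. Of 24542 features, 92 ERCC rows (1 count in all) were left out. Total counts were 1838824 to 7833087 per library. Replicates are pools of oocytes, so p-values measure the spread between pools; apart from the identical columns, no 2 libraries of a group came closer than 3.36 in chi-square per degree of freedom.

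The 22 libraries with a stated batch were fitted together with edgeR 4.0.16 in R 4.3.3 (TMM factors, filterByExpr by group, robust quasi-likelihood, terms for group and batch; 11794 genes, 14 residual degrees of freedom), and p-values were Benjamini-Hochberg adjusted over all genes tested. HD mutant 4 and 5 entered levels only, not the fit. Standard errors were worked out as the absolute log2 fold change divided by the square root of the F statistic. The 95% intervals of fold changes were built from them with t quantiles, so both are approximate. TMM factors were 0.734 to 0.759 in batch 1 and 0.927 to 1.20 elsewhere. Ratios of summed counts carry exact 95% intervals, which, like the floor of 3 counts, cover counting error only. The fit was tested on simulated counts. DESeq2 1.42.0, other scalings and filters, no batch term, single batches, a block on replicate number and leaving out each library were tried. Leaving out the libraries labelled Tet3 KO was added after seeing the data.

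The 8 genes and all lists were chosen with earlier results of these data known. Named besides the 8 are, per list, up to 4 genes called in LCD KO or DKO against WT, or else the 2 tested genes with the highest mean CPM, together with the 2 most alike genes and the nearest tested neighbours of each. Cask, Rmdn2 and genes named as not passing were named after their values were seen. Neighbours, overlaps and promoter sequences come from RefSeq on GRCm38.p6, whose coordinates were not joined to mm9 data.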

Additional observations from a re-analysis of the deposited data

Results flagged for a closer look

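Among the 8 genes, 6 values stood apart from the rest of their group by Dixon's criterion, out of 24 groups of 5 to 7 libraries checked; chance marks about 5% of groups. All 6 are the highest values of their groups, and 5 come from batch 2. Tril was at 13.4 CPM in WT 4 (next value 4.68), 3.38 in LCD KO 5 (next 1.11) and 3.59 in HD mutant 3 (next 1.04). Bend3 was at 7.52 CPM in WT 4 (next 2.82) and 2.14 in LCD KO 5 (next 0.556). Ebf2 was at 0.952 CPM in LCD KO 7 of batch 3 (next 0.409), which is 4 counts.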

How the results depend on the processing

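In LCD KO against WT, all 255 fold changes of the 8 genes over the alternatives were below 0, and in DKO against WT 216 of 245 were. Bend3 in DKO was already above 0 in the reported fit (0.15). These libraries chose the genes and the alternatives reuse them, so the signs are a description. With RLE size factors or library totals no count of called members changed. Members called lower in HD mutant against WT numbered 4 in the reported fit, 0 in batch 2 alone and 1 to 5 when each library was left out; in labelled Tet3 KO against WT 0 to 1, and in HD mutant against the mean of Dnmt3a KO and labelled Tet3 KO 0 to 1. That contrast gave 1 member without the filter, without the batch term and with the libraries labelled Tet3 KO left out (316 genes, with HD mutant against Dnmt3a KO alone), and 287 genes from only the libraries that did not choose the members. Labelled Tet3 KO against Dnmt3a KO gave 1 member with DESeq2 and 1 without the filter.

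Calls over all genes moved by over 1.5 times as follows. DESeq2 called 185 in Dnmt3a KO against WT (89 reported) and 68 in labelled Tet3 KO against Dnmt3a KO (32). Without the filter these were 311 and 158, with 284 in labelled Tet3 KO against WT (162) and 830 in HD mutant against the mean (507). Without the batch term, HD mutant against WT gave 405 (924), Dnmt3a KO 15, labelled Tet3 KO 47, and labelled Tet3 KO against Dnmt3a KO 5. Batch 3 alone gave 54 in Dnmt3a KO, and batch 2 alone 40 in HD mutant. Leaving out each library gave 384 (without HD mutant 1) to 1112 in HD mutant against WT, 26 (without Dnmt3a KO 2) to 152 (without HD mutant 1) in Dnmt3a KO, 55 (without the first) to 204 in labelled Tet3 KO, 285 (without LCD KO 5) to 596 in HD mutant against the mean and 7 (without Dnmt3a KO 2) to 42 in labelled Tet3 KO against Dnmt3a KO. Where an arm kept 1 library, it was assumed to vary like the others. The cause of these shifts was not tested.

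Replicate numbers were not used as pairs. Deviations from the group mean had r above 0.1 in 14 of 40 same-numbered pairs, range -0.585 to 0.758. Same-numbered WT and LCD KO libraries of the same batch gave 0.248 to 0.758. Batch was not removed from these deviations, so r also reflects a shared batch and cannot decide whether the numbers pair the libraries. With a replicate block in place of batch, HD mutant against WT gave 3478 calls, Dnmt3a KO 1437 with 2 members, labelled Tet3 KO 1163 with 2 members, HD mutant against the mean 3048 with 1 member, and labelled Tet3 KO against Dnmt3a KO 6. Signs turned under that block for Neto2 (0.11), Bend3 (1.25) and Runx2 (0.17) in HD mutant against WT, Ebf2 (0.57) and Neto2 (0.79) in Dnmt3a KO, Ebf2 (0.16) in labelled Tet3 KO, and Zfp521 (0.46), Tril (0.22) and Runx2 (0.27) in HD mutant against the mean. Without the batch term they turned for Ebf2 (0.43) and Neto2 (0.11) in Dnmt3a KO, Bend3 (-0.0078) in labelled Tet3 KO, and Zfp521 (0.36) and Tril (0.36) in HD mutant against the mean. Leaving out 1 library turned Neto2 in Dnmt3a KO (-0.93 to 0.36) and in labelled Tet3 KO (-0.61 to 0.71), Ebf2 in Dnmt3a KO (-1.06 to 0.24), and Tril (-3.28 to 0.16) and Runx2 (-0.51 to 0.10) in HD mutant against the mean. Depth limits Ebf2, Zfp521, Tril and Runx2 in DKO, where at most 2 counts remained. In LCD KO of batch 1 it limits Neto2, with 0 counts, and Ebf2, Tril and Bend3, with 1 count each.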
